A study of Mus musculus with 8 samples.

Results

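The genes described here act in desquamation, the shedding of corneocytes from the skin surface: the inhibitor gene Spink5, the kallikrein genes Klk5, Klk6, Klk7, Klk8, Klk10, Klk11, Klk13 and Klk14, and the corneodesmosin gene Cdsn. They were chosen by name, and every probe set whose platform annotation gives 1 gene symbol, that of the gene, was taken. This gave 9 probe sets for 9 of the 10 genes, out of 18193 genes read in this way. Each of the 9 genes had 1 such probe set, so its value rests on that probe set alone, and none of the 9 has a name ending in _x_at or _s_at, the endings of sets prone to take up related transcripts. Klk14 had none and was not analysed here. The RNA was of dorsal skin taken from B6D2/F1 mouse embryos of embryonic day 18.5. The wild-type group (GR+/+) held 4 arrays, numbered 4, 6, 28 and 29 in their labels, and the GR-null group (GR-/-, littermates lacking the glucocorticoid receptor encoded by Nr3c1) held 4, numbered 5, 17, 25 and 26. The labels give the genotype of the whole embryo, and the sources used here give neither the disrupted allele nor whether each array came from a separate embryo, so p-values measure the spread between these samples.

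Corneocytes are held together by corneodesmosomes, desmosomes modified by the secreted protein corneodesmosin. Kallikreins are secreted serine proteases made in the granular layer as inactive precursors. They activate one another and cleave corneodesmosin and the desmosomal cadherins, and LEKTI, the multidomain inhibitor encoded by Spink5, restrains them. Loss of LEKTI causes Netherton syndrome, with overactive kallikreins and a skin barrier that detaches, and loss of corneodesmosin also breaks the barrier. Glucocorticoids act through the receptor as a ligand-activated transcription factor that binds DNA as a dimer on paired half-sites.

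Windows before the start sites of the genes that differed most are shown because the compared genotypes differ in a DNA-binding factor. Those of Spink5 and of the first Klk6 start are not shown. The windows come from RefSeq (GRCm38.p6), from which 12 windows of 250 bases were taken for 9 of the genes. Spink5 is left out of these windows, so the counts below over the 12 do not cover it. Capitals mark the receptor half-site AGAACA, searched on both strands, so that TGTTCT is the same motif read on the other strand.
Cdsn, first start listed (chr17:35542851-35543100, plus strand): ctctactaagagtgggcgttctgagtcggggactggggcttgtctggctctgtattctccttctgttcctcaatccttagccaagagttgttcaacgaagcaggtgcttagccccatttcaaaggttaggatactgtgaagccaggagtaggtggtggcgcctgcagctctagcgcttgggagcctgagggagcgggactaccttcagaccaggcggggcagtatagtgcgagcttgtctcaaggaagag
Cdsn, second start listed (chr17:35551878-35552127, plus strand): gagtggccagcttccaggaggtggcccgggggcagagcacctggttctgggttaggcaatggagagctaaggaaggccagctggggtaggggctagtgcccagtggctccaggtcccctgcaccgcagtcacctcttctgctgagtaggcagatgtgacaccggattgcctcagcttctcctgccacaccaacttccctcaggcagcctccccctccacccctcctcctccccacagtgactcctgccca
Klk13 (chr7:43712317-43712566, plus strand): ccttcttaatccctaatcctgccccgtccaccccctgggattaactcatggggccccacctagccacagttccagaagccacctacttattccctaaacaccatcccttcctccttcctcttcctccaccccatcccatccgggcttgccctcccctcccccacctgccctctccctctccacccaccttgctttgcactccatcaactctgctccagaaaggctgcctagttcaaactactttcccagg
Klk10 (chr7:43780804-43781053, plus strand): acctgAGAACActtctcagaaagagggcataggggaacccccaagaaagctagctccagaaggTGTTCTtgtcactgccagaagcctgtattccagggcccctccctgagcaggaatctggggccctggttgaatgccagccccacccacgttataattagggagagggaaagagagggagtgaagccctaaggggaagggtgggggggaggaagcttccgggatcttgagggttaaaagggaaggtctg
Klk6, second start listed (chr7:43825200-43825449, plus strand): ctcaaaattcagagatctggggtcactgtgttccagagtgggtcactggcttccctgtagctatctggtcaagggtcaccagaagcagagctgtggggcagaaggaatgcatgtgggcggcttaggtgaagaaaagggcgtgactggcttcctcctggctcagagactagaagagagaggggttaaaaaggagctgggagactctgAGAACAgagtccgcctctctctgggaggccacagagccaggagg
No half-site was found in either Cdsn window or in that of Klk13, the genes with the largest negative differences. The Klk10 window held 2, starting 245 and 187 bases before the start. The second Klk6 window held 1, starting 44 bases before the start, and the first Klk6 window, not shown, held 0. Of the 12 windows 4 held a half-site (33.3%), the other two being those of Klk14 and of the second start of Klk11, against 16.1% of 32851 windows of that length in the table. The paired site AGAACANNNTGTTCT, which contains the half-site on each strand, was in 0 of the 12 windows and in 3 of the 32851. A match of letters is no evidence of binding, and sites farther away were not searched.

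Values are RMA expression values on the log2 scale, and a difference of 1 is a change of 2-fold. Array medians lay between 6.46 and 6.52, and no 2 arrays held the same values. The genotype check was Nr3c1, whose groups did not overlap, with lower GR-null values, at 3 of 6 probe sets. The differences there were -0.84, -1.86 and -2.70 log2. The first was at the brightest set, which still averaged 9.42 in GR-null arrays. At the other sets the groups overlapped, with differences of 0.27, 0.04 and 0.35. The sources used here do not say where the 6 sets lie relative to the disrupted part. GR-null 17 stood apart from the other GR-null arrays, with a first principal component score of -7.96, where those of the other 3 were positive and those of wild-type arrays were -42.3 to -13.6. Its mean over 10 hair follicle markers was 9.24, against 6.51 to 7.18 in the other 7 arrays, and its mean over 25 skeletal muscle markers was 11.12, against 10.11 to 10.35 in the other GR-null and 11.07 to 11.15 in the wild-type arrays. GR-null 17 and wild-type 6 were the arrays with high Xist, 12.61 and 13.22 against 5.92 to 6.38. They also had low Y-linked Eif2s3y, 3.31 and 3.43 against 8.83 to 9.51. GR-null 17 was thus the one GR-null array with this female pattern. The skin markers Krt14, Krt10 and Col1a1 averaged 12.90, 14.72 and 14.20 over the 8 arrays. Results are therefore given with and without GR-null 17.

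In GR-null skin, Cdsn was the one gene of the 9 past the threshold (an adjusted p under 0.05 over all genes), at 2.83-fold lower. The Klk13 and Spink5 values of the GR-null arrays all lay below those of the wild-type arrays, and the Klk6 values above, but all 3 genes missed that threshold. The main desquamating kallikreins Klk5 and Klk7, and Klk8, overlapped between the genotypes. The count of 1 of 9 stands beside 2.96% of all genes called in either direction. The groups did not overlap in 4 of the 9, against 13.0% of all genes. In 3 of these the GR-null values were lower (6.30% of all genes) and in 1 higher (6.69%). Of the 9, 5 had an unadjusted p below 0.05 in limma, against 21.6%. The median log2 fold change, GR-null minus wild-type, was -0.32 over the 9 genes and -0.0045 over all genes. Log2 fold changes were negative in 7 of the 9 genes, beside 9324 of all 18193. Of these 7, Klk5 (-0.13) and Klk8 (-0.02) turned positive without GR-null 17, at 0.04 and 0.18.

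**Figure D1:**
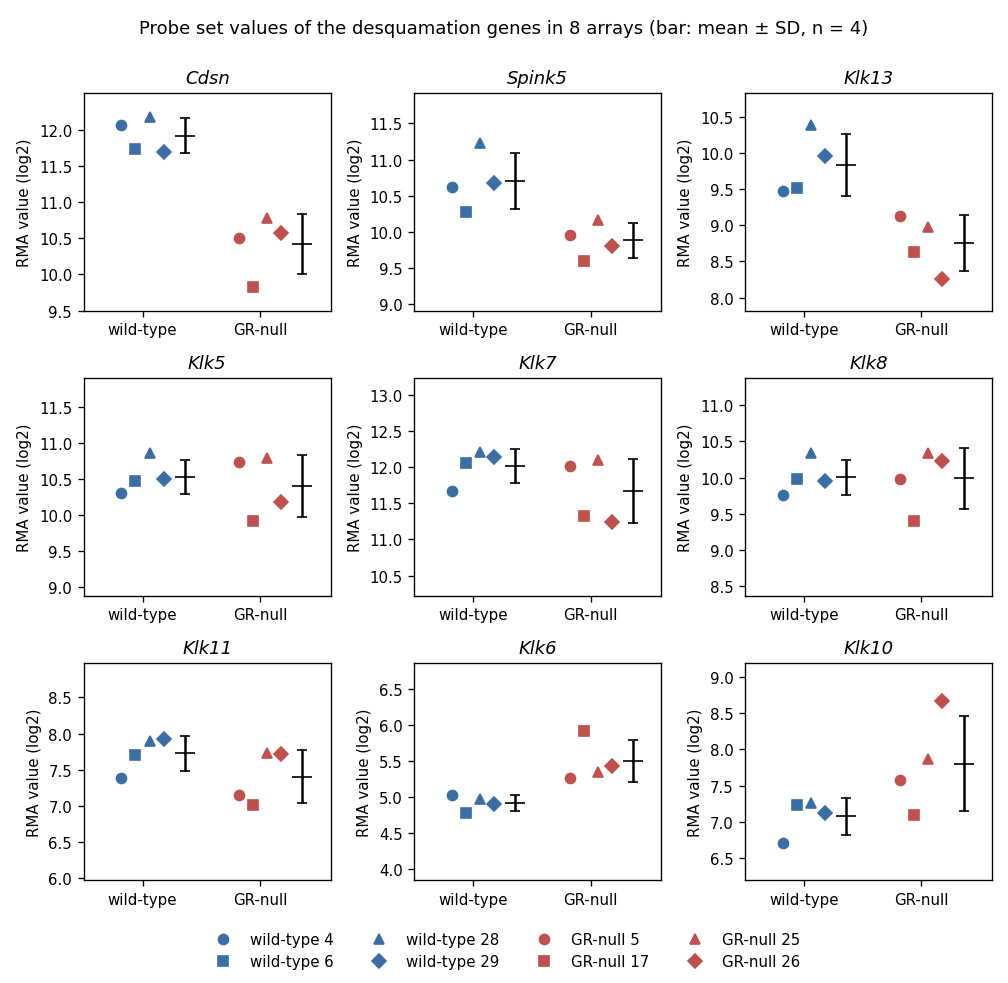
RMA expression values (log2, vertical axis, each panel spanning the same range of values) of the 9 genes in 4 wild-type and 4 GR-null arrays, a symbol for each array, with the group mean ± SD (n = 4) as a bar. The groups are separate for Cdsn, Spink5, Klk13 and Klk6 and overlap for the other 5 genes.

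Cdsn encodes corneodesmosin, the adhesive protein that kallikreins cleave. It read 12.06, 11.74, 12.18 and 11.68 log2 on wild-type arrays 4, 6, 28 and 29 and 10.50, 9.82, 10.78 and 10.57 on GR-null arrays 5, 17, 25 and 26. Every GR-null array lay below every wild-type array, and GR-null 17 was the lowest. The group means were 11.92 ± 0.24 (SD, n = 4) and 10.42 ± 0.42. Cdsn fell by 1.50 ± 0.21 log2 (SE, 95% interval -1.96 to -1.04, limma adjusted p = 0.0128 over all genes). Without GR-null 17 it fell by 1.30 ± 0.14 (adjusted p = 0.00353), and the call held in all 8 fits that left out 1 array, with adjusted p up to 0.0414. In whole skin, fewer cells that make a transcript and less of it per cell cannot be told apart.

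Markers of the granular layer, where Cdsn is made, had a lower mean too. Of 11 measured granular keratinocyte markers, 4 fell and 0 rose (Flg, Lor, Rptn and Lce1b), with 6 lower and 0 higher at an unadjusted p below 0.05. Over all genes 1.56% fell, 1.40% rose and 21.6% had an unadjusted p below 0.05, the shares beside which each marker count here stands. The mean of the granular markers lay between 10.83 and 11.52 log2 in wild-type arrays. In GR-null arrays it lay between 9.72 and 10.40, lowest in GR-null 17. That mean was uneven, with Rptn at -3.86 and Flg at -2.35 log2 weighing most. Lor, Ivl, Lce1a1 and Lce1b differed by -0.99 to -0.48 without overlap. Hrnr, Casp14, Tgm3 and Cnfn differed by -0.32 to -0.21 with overlap, and Krt2, at a mean of 3.92, by 0.01. Of 6 spinous markers 0 were called by limma (1 lower at an unadjusted p below 0.05), with means of 13.80 to 14.04 in wild-type and 13.44 to 13.94 in GR-null arrays. Of 7 basal markers 2 rose and 0 fell (4 higher and 0 lower unadjusted), with means of 10.84 to 11.22 and 11.14 to 11.45. In the other lists limma called 1 of 6 mast cell and 1 of 5 macrophage markers, both lower, and 0 of 10 hair follicle, 0 of 6 dermal fibroblast, 0 of 4 adipocyte and 0 of 4 endothelial ones. Unadjusted, it gave 1 higher and 1 lower marker each for mast cells and macrophages. It gave 3 higher and 0 lower for hair follicle, 2 higher and 1 lower for fibroblasts, 0 for adipocytes and 1 lower for endothelium. The part of these markers in the Cdsn result was not tested. The mean of the skeletal muscle markers was also lower in 3 of the GR-null arrays. Of these 25 markers 5 were called lower and 0 higher (15 and 0 unadjusted). The 5 (Actn2, Myh3, Tnnt1, Casq2 and Mybpc1) were lower in every GR-null array, GR-null 17 included, than in any wild-type array. The mean of the list could also be set as a covariate. GR-null 17 was the one GR-null array at the wild-type level of that mean, so a fit with it rests on that array. The Cdsn difference in that fit was -2.03 log2, and GR-null 17 alone minus the wild-type mean was -2.10.

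**Figure D2:**
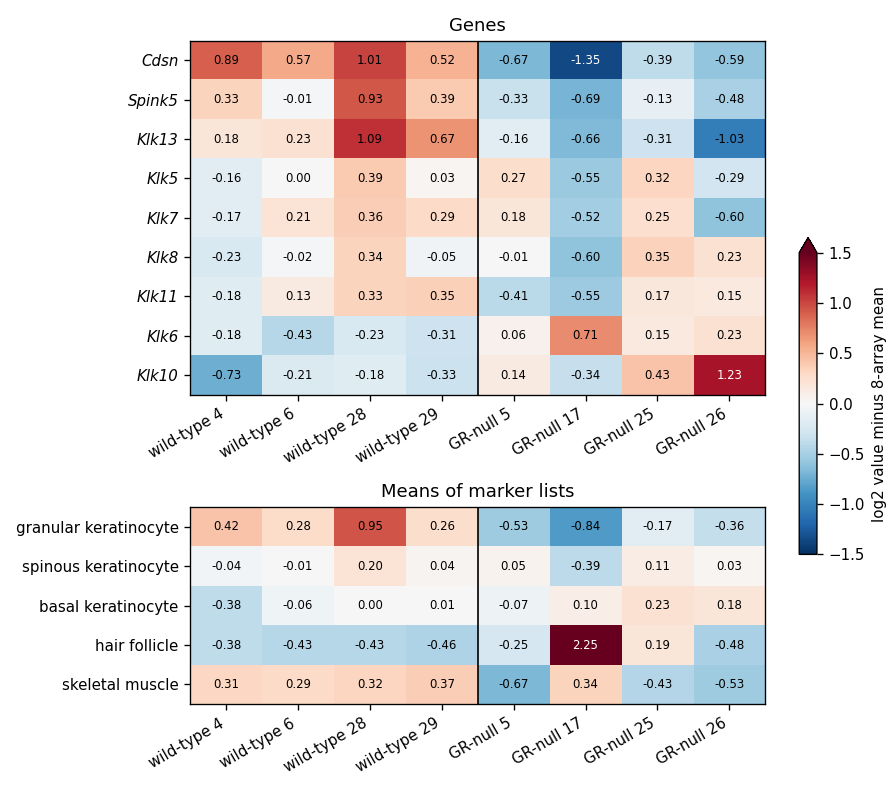
Values of the 9 genes (upper panel) and means of 5 marker lists (lower panel) in each array, as log2 differences from the mean of the 8 arrays, with wild-type arrays left of the line and colour from blue (lower) to red (higher). GR-null 17 is lowest for Cdsn at -1.35 and for the granular list at -0.84, and stands at 2.25 for the hair follicle list, beyond the colour scale.

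Spink5 encodes LEKTI, which blocks Klk5 and Klk7 until its fragments are released in the upper stratum corneum. It read 10.62, 10.28, 11.23 and 10.68 log2 on wild-type arrays 4, 6, 28 and 29 and 9.96, 9.60, 10.17 and 9.81 on GR-null arrays 5, 17, 25 and 26. The groups did not overlap, and wild-type 6 and GR-null 25 were the arrays closest to each other across the genotypes. The log2 fold change was -0.82 ± 0.20 (SE, 95% interval -1.26 to -0.37, limma adjusted p = 0.0602 over all genes), a 1.76-fold difference that missed the threshold. Without GR-null 17 it was -0.72 ± 0.20 (adjusted p = 0.0644).

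Klk5, which can activate itself and then the other kallikreins, read 10.30, 10.47, 10.86 and 10.49 log2 in the wild-type arrays in the same order. In the GR-null arrays it read 10.73, 9.92, 10.79 and 10.18. The groups overlapped, with 2 GR-null arrays below all wild-type arrays and the other two above 3 of them. The log2 fold change was -0.13 (95% interval -0.60 to 0.34, limma adjusted p = 0.793), and 0.04 (-0.38 to 0.45) without GR-null 17.

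Klk7, the chymotrypsin-like protease that cleaves corneodesmosin, read 11.67, 12.05, 12.21 and 12.13 log2 on wild-type arrays 4, 6, 28 and 29. On GR-null arrays 5, 17, 25 and 26 it read 12.02, 11.33, 12.09 and 11.24. GR-null 5 and 25 lay within the wild-type range and GR-null 17 and 26 below it. The difference was -0.35 log2 (95% interval -0.83 to 0.14, limma adjusted p = 0.398), so a fall of up to 0.83 is within the interval. It was -0.23 (adjusted p = 0.562) without GR-null 17 and -0.21 (adjusted p = 0.675) without GR-null 26.

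Klk8, a trypsin-like kallikrein of the epidermis and the brain, read 9.76, 9.97, 10.33 and 9.95 log2 in the wild-type and 9.99, 9.39, 10.35 and 10.23 in the GR-null arrays. GR-null 17 lay below the wild-type range, GR-null 25 just above it and the other 2 within it. The difference was -0.02 log2 (95% interval -0.48 to 0.45, limma adjusted p = 0.979), and 0.18 (-0.15 to 0.52) without GR-null 17.

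Klk11, another trypsin-like member expressed in the granular layer, read 7.39, 7.70, 7.90 and 7.92 log2 in the wild-type and 7.16, 7.02, 7.73 and 7.71 in the GR-null arrays. GR-null 5 and 17 lay below all wild-type arrays and GR-null 25 and 26 among them. The difference was -0.32 log2 (95% interval -0.75 to 0.11, limma adjusted p = 0.379), and -0.19 (adjusted p = 0.563) without GR-null 17.

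Klk13 had the largest difference among the kallikreins. It read 9.47, 9.52, 10.38 and 9.96 log2 on wild-type arrays 4, 6, 28 and 29 and 9.13, 8.63, 8.98 and 8.26 on GR-null arrays 5, 17, 25 and 26. Every GR-null array lay below every wild-type array, with wild-type 28 the highest and GR-null 26 the lowest. The log2 fold change was -1.08 ± 0.24 (SE, 95% interval -1.63 to -0.54, 2.12-fold). Its limma adjusted p was 0.0502 over all genes, just outside the threshold, and 0.0458 over all probe sets, where 2 of the 9 genes were called, both lower, against 3.85% of probe sets in either direction and 1.63% lower. Without GR-null 17 it was -1.04 ± 0.27 (adjusted p = 0.0505).

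Klk6 and Klk10 were the members with positive differences. Klk6, a trypsin-like kallikrein, read 5.03, 4.78, 4.98 and 4.90 log2 in the wild-type and 5.27, 5.91, 5.35 and 5.43 in the GR-null arrays, all of them below the array medians, where RMA compresses differences. The groups did not overlap, and GR-null 17 was the highest. The log2 fold change was 0.57 ± 0.14 (SE, 95% interval 0.26 to 0.89, limma adjusted p = 0.0628). Without GR-null 17 it was smaller but past the threshold, at 0.43 ± 0.09 (adjusted p = 0.0254), in a fit that called 9.01% of all genes. The fit with the muscle covariate, which rests on GR-null 17, gave 0.98, and GR-null 17 alone minus the wild-type mean was 0.99.

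Klk10, another kallikrein of the epidermis, read 6.71, 7.23, 7.26 and 7.12 log2 on wild-type arrays 4, 6, 28 and 29. On GR-null arrays 5, 17, 25 and 26 it read 7.58, 7.10, 7.88 and 8.67. GR-null 17 lay within the wild-type range, while the other 3 GR-null arrays lay above it and GR-null 26 was the highest. With all arrays the difference was 0.73 ± 0.29 log2 (SE, 95% interval 0.06 to 1.39, limma adjusted p = 0.195), and it was 0.96 ± 0.25 (adjusted p = 0.0514) without GR-null 17. Without GR-null 26 it was 0.44 (adjusted p = 0.316).

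**Figure D3:**
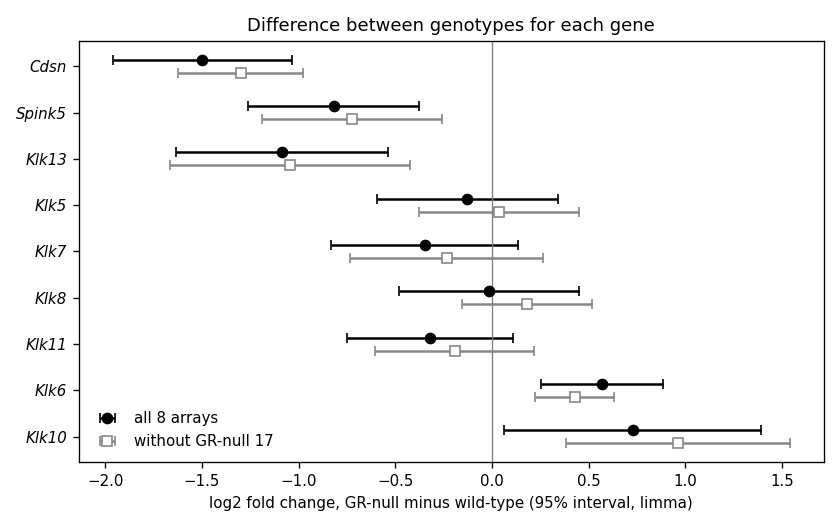
Log2 fold change (GR-null minus wild-type, horizontal axis) of each gene with its 95% interval from limma, over all 8 arrays (filled) and without GR-null 17 (open). Cdsn lies farthest below 0 in both, and Klk10 and Klk6 lie above 0.

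GR-null 17 was the lowest GR-null array for 6 of the 9 genes and wild-type 28 the highest wild-type array for 7. Differences within each array set 1 gene against another in the same RNA. The Cdsn value minus the Klk5 value changed by -1.37 log2 between the genotypes, from 1.39 ± 0.25 (SD, n = 4) in wild-type to 0.01 ± 0.27 in GR-null arrays, with no overlap. The Cdsn value minus the Klk7 value changed by -1.15, also with no overlap. The Spink5 value minus the Klk5 value changed by -0.69, from 0.17 ± 0.25 to -0.52 ± 0.22, with no overlap. The Spink5 value minus the Klk7 value changed by -0.47, and its groups overlapped. The Klk13 value minus the Klk5 value changed by -0.96 with no overlap, so Klk13 was lower relative to Klk5 in each GR-null array than in any wild-type array. These pairs were chosen with the values known and were not tested, and the level of such a difference compares 2 probe sets and has no meaning of its own.

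The kallikreins lie side by side in a single cluster on chromosome 7, with differences of both signs. In the RefSeq order from Klk14 to Klk4, 10 of 11 genes had a probe set. Log2 fold changes ran from -1.08 in Klk13 through 0.02 in its neighbour Klk12 and -0.32 in Klk11 to 0.73 in Klk10 and -0.31 in Klk9. They were -0.02 in Klk8, -0.35 in Klk7, 0.57 in Klk6, -0.13 in Klk5 and -0.11 in Klk4. Of these 10, limma called 0 over all genes, with 2 higher and 1 lower at an unadjusted p below 0.05, beside 21.6% of all genes in either direction. In the stretch from Klk15 to Klk1, which holds the salivary Klk1b genes, 10 of 25 genes had a probe set. Their log2 fold changes lay between -0.26 and 0.18, and limma called 0 (0 higher and 2 lower unadjusted, near that share). Mean levels there were 3.89 to 7.35 log2, below the array medians in all but Klk1, and these near-identical genes can share probes.

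**Figure D4:**
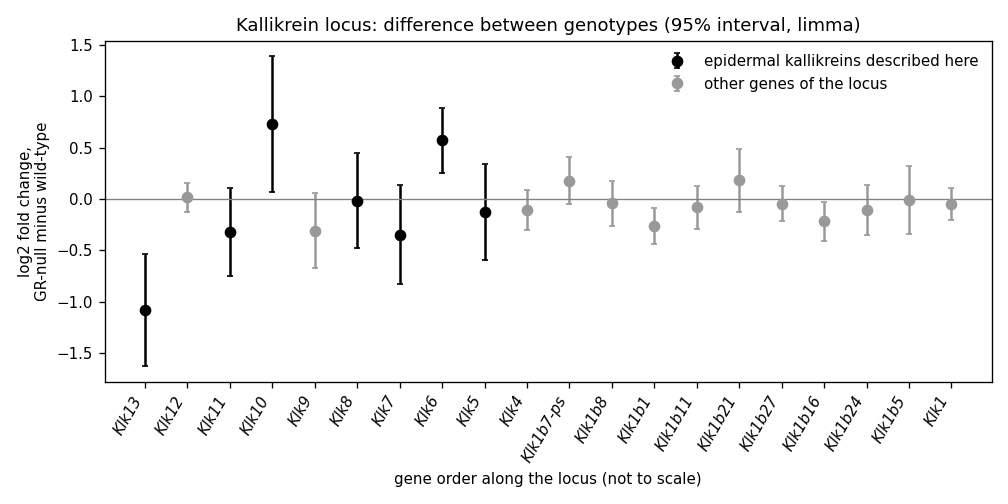
Log2 fold change (GR-null minus wild-type, vertical axis) with 95% interval from limma for the 20 kallikrein locus genes with a probe set, in their order along the chromosome and not to scale. The epidermal members spread from -1.08 (Klk13) to 0.73 (Klk10), while the genes from Klk1b7-ps to Klk1 lie within -0.26 to 0.18.

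Other genes of desquamation were read from a list of 51, of which 42 were measured. Of these 1 fell and 0 rose over all genes, against 1.56% of all genes lower and 1.40% higher, and 41 were not past the threshold. Limma gave 4 higher and 5 lower when p was left unadjusted, with the limit at 0.05, 9 of 42 beside 21.6% of all genes. The groups did not overlap in 5 of the 42 with higher and 4 with lower GR-null values, beside 6.69% and 6.30% of all genes. The median log2 fold change of the 42 was -0.11.

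The gene that fell was Tmprss13, a membrane-anchored serine protease of the epidermis. It read 8.66, 8.92, 9.23 and 9.23 log2 in the wild-type and 7.73, 8.23, 8.13 and 7.71 in the GR-null arrays, without overlap. Tmprss13 fell by 1.06 ± 0.17 log2 (SE, limma adjusted p = 0.0180), and without GR-null 17 by 1.15 (adjusted p = 0.00814). The call ended without wild-type 28 or 29 or GR-null 5, 25 or 26, where the log2 fold change was -1.12 to -0.98 (adjusted p of 0.0521 to 0.0605). Among the other 14 of 15 activating and other proteases, Tmprss11f had the next smallest p, at -0.97 ± 0.28 (adjusted p = 0.0914), also without overlap. The activators matriptase (St14) and prostasin (Prss8), which fall outside the rule for named genes and were picked with their values in view, differed by -0.30 and -0.20 log2 (adjusted p of 0.378 and 0.738).

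Of 11 protease inhibitors, limma called 0 (0 higher and 1 lower unadjusted). Cystatin B (Cstb) differed by -0.39 ± 0.09 log2 (adjusted p = 0.0581) at its brighter probe set, with no overlap, and by -0.03 at its other one. The elastase inhibitor Slpi had 0.16 ± 0.07 (adjusted p = 0.238), also with no overlap. Of 4 other kallikreins, limma called 0 (0 unadjusted in either direction), with Klk9 at -0.31 (adjusted p = 0.309) and Klk4 at -0.11 (adjusted p = 0.522) having the smallest p.

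Of 9 desmosomal genes (drawn as substrates in the figure, though plaque genes are among them), limma called 0 (1 higher and 1 lower unadjusted). The cadherin desmocollin 3 (Dsc3), a basal-layer form, read 10.76, 11.11, 11.17 and 10.82 log2 in the wild-type and 11.75, 11.18, 12.19 and 12.02 in the GR-null arrays. The lowest GR-null array, GR-null 17, was just above the highest wild-type array. The log2 fold change was 0.82 ± 0.21 (adjusted p = 0.0675), and without GR-null 17 it was 1.02 (adjusted p = 0.00732). The fit with the muscle covariate gave 0.30 (adjusted p = 0.668). Plakophilin 1 (Pkp1), of the desmosomal plaque, had -0.32 ± 0.11 (adjusted p = 0.144), without overlap. Without GR-null 17, 2 genes of the list rose (Dsc3 and Dsg1a) and 3 fell (Tmprss13, Furin and Cstb), against 3.80% and 5.21% of all genes.

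Of 3 measured genes for signalling and other substrates, limma called 0 (1 higher and 0 lower unadjusted). The cytokine Tslp, induced downstream of overactive Klk5, differed by 0.45 ± 0.14 log2 (adjusted p = 0.101), without overlap, at levels of 4.34 to 5.31. The antimicrobial peptide precursor Camp, which kallikreins process, had 0.55 ± 0.47 (adjusted p = 0.569), its value being 8.21 in GR-null 17 and 5.71 to 6.22 elsewhere. Without GR-null 17 it was -0.01 (adjusted p = 0.972).

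**Figure D5:**
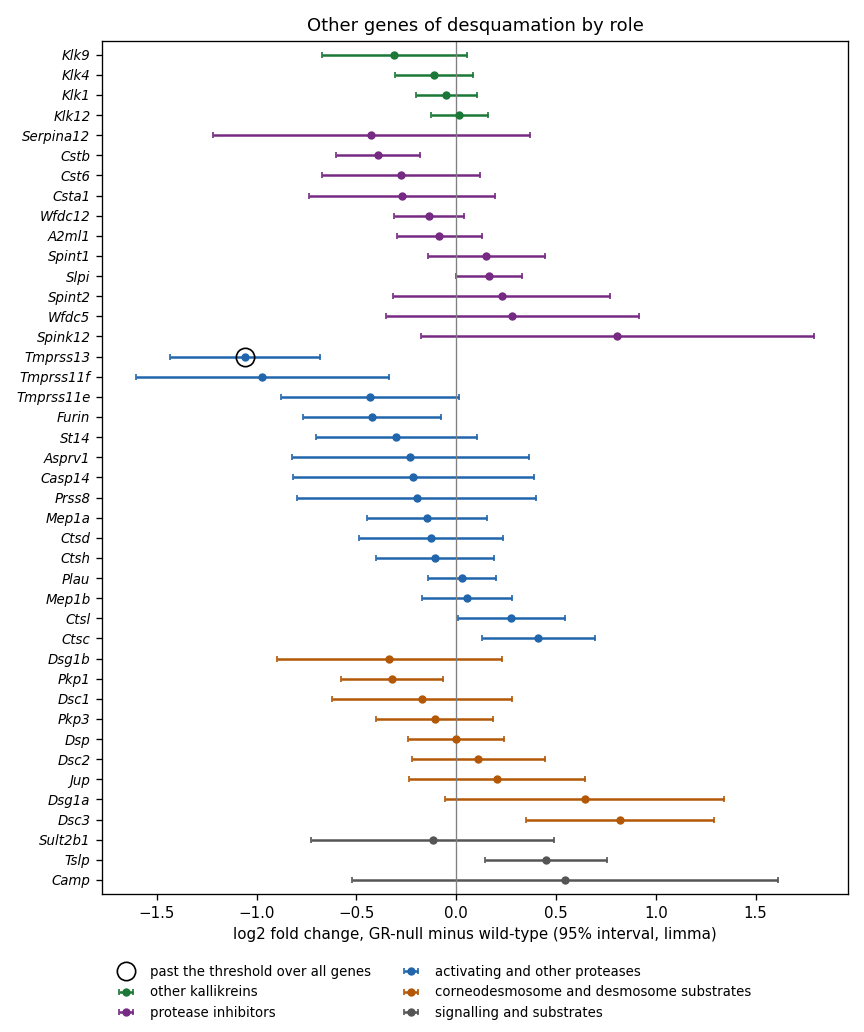
Log2 fold change (GR-null minus wild-type, horizontal axis) with 95% interval from limma for 42 other genes of desquamation, coloured by role, with the gene past the threshold over all genes ringed. Tmprss13 is ringed at -1.06, and Dsc3 at 0.82 has the largest difference above 0 whose interval leaves out 0.

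The genes whose profiles over the 8 arrays were most like those of the 3 most variable members were taken among 9091 genes. These 9091 were not members and had a mean at or above the median of all genes. Likeness was the root mean square difference of values centred on their 8-array means. It takes in any difference between the genotypes, so a shared difference is no separate result. For Cdsn the most alike genes were Sdcbp2 at 0.23 log2, Nlrp10 at 0.25, Ggct at 0.28, Plk3 at 0.29 and Adh1 at 0.30. For Klk13 they were Atp6v1c2 at 0.19, Vasn at 0.22, Lrrc28 at 0.25, Cpa4 at 0.26 and Ggct at 0.27. For Klk10 they were Fam83d at 0.16, Rhbg at 0.20, Lurap1l at 0.21, Il1rn at 0.22 and Pou2f3 at 0.23. Ggct was near both Cdsn and Klk13.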

How the data were processed

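Deposited by the authors were log2 values, 1 per probe set and array, of single-colour Affymetrix arrays, made with RMA (background subtraction, equal distributions across arrays, probe summary), per the submitters' processing notes. The sources used here do not give its version. Equal distributions hide a shift common to most transcripts, and RMA compresses differences at dim and very bright probe sets. No detection calls were used.

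Of 45101 probe sets, 64 controls were left out. By the platform annotation 34945 had 1 gene symbol, 932 several and 9160 none. Limma 3.58.1 in R 4.3.3 (lmFit and eBayes, default prior, genotype as the only term, two-sided) was fitted to all 45037 and tested on simulated data. A gene took the value of its brightest probe set over the 8 arrays, and p-values were adjusted by Benjamini-Hochberg over 18193 genes, with a threshold of 0.05. The number of arrays limits the precision.

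The members, the list of other desquamation genes and the marker lists were chosen with earlier results of these data known. Named genes were all members, list genes past the threshold, the 2 with the smallest p in each role, and the 5 genes most like each of the 3 most variable members. Alternatives were a further normalization, a dim filter, other priors, array weights, covariates (muscle markers, Y-linked level), other probe set choices, an exact permutation test, and leaving out each array.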

Additional observations from a re-analysis of the deposited data

Results flagged for a closer look

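Among 38 groups of 4 arrays looked at (the 9 genes of the report's opening and 10 named genes of the other desquamation list, in both genotypes), 2 held an array far from the other 3, and chance gives about 1 in 20. Both were wild-type 6. Klk4 read 4.25 log2 there against 4.01 to 4.05 in the other wild-type arrays, a dim level. Slpi read 6.67 there against 6.80 to 6.82. None of the 9 had such an array.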

How the results depend on the processing

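No paired analysis was done, because the groups share no label number and the sample labels name no litter. Arrays from the same litter, if any, were therefore not matched. Cdsn kept its direction and its call in the alternatives with an adjusted p (0.00353 to 0.0414), with log2 fold changes of -1.62 to -1.30 without 1 array and an exact permutation p of 0.0286, the smallest that 4 against 4 arrays allow. Klk13 missed the threshold narrowly with all arrays. It passed at -1.10 (adjusted p = 0.0472) with a further quantile normalization and at -1.09 with array weights (0.0236). At an unchanged -1.08 it passed with the dim filter (0.0447), the intensity trend with a robust prior (0.0499) and averaged probe sets (0.0395). It also did without _x_at and _s_at sets (0.0495) and with a prior from 1 probe set per gene (0.0411). At -1.08 its values were the same, so only the prior or the adjustment moved p. Over its alternatives its adjusted p ran from 0.0236 to 0.272. Spink5 passed the threshold at -0.81 with array weights (0.0291) and -0.79 with the Y-linked covariate (0.0358). Klk6 passed it at 0.47 with array weights (0.0307). With the mean of all probe sets Spink5 (-0.82, 0.0466) and Klk6 (0.57, 0.0475) also passed, again with the same values. Adjusted p ranged from 0.0291 to 0.224 in Spink5 and from 0.0183 to 0.151 in Klk6, which the dim filter removed. The exact permutation p, unadjusted, was 0.0286 for Spink5 (-0.82), Klk6 (0.57) and Klk13 (-1.08) too. Without 1 array, log2 fold changes ran from -0.96 to -0.64 in Spink5 (adjusted p from 0.0464 without wild-type 6 to 0.140), from 0.43 to 0.65 in Klk6, and from -1.21 to -0.90 in Klk13, which passed the threshold in 0 of the 8 fits. Klk8 changed sign, at 0.080 with array weights, 0.0096 with the Y-linked covariate, 0.09 without wild-type 28 and 0.18 without GR-null 17, over -0.14 to 0.18 without 1 array. Klk5 changed sign at 0.036 without GR-null 17, over -0.26 to 0.036. Neither was called in any of these fits. Klk10 ran from 0.44 (without GR-null 26) to 0.96 and Klk7 from -0.49 to -0.21 without 1 array.

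The fit with the muscle covariate rests on GR-null 17, the one GR-null array at the wild-type level of the muscle marker mean. It is no independent check. It gave -2.03 for Cdsn (adjusted p = 0.0101), 0.98 for Klk6 (0.0183), -1.21 for Klk13 (0.272), -1.05 for Spink5 (0.224), -0.58 for Klk5 (0.429), -0.66 for Klk7 (0.452), -0.52 for Klk8 (0.435), -0.59 for Klk11 (0.454) and 0.12 for Klk10 (0.939). In the other list it gave 0.30 for Dsc3 (0.668), -0.74 for Tmprss13 (0.255), which was no longer called, -0.72 for Klk9 (0.162) and 2.13 for Camp (0.0101), which was called.

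Called genes numbered 539 with all arrays, 1944 with array weights, 126 with the muscle covariate, 884 with the mean of all probe sets, and from 79 (without GR-null 25) to 1640 (without GR-null 17) without 1 array. Called probe sets numbered 1735, then 5831 with array weights, 143 with the muscle covariate and from 125 to 4866 without 1 array. Of the list of other desquamation genes, 2 were called with the intensity trend, 5 with array weights and 0 to 5 without 1 array. The call of Tmprss13 ended in 5 of the 8 fits without 1 array, as the report gives. Camp changed sign without GR-null 17, over -0.012 to 0.82 without 1 array. The causes of these changes were not tested.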

Other observations

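Some desmosomal genes had probe sets that differed from one another, which the report's single reading per gene leaves out. These were chosen after their values were seen. Desmoplakin (Dsp), which ties desmosomes to keratin filaments, had log2 fold changes of 0.00033 and -0.17 at its brighter probe sets and of 1.94 ± 0.58 (SE, n = 4 per group, limma adjusted p = 0.0937 over probe sets) at the dimmest. That one read 10.33, 9.77, 9.39 and 8.19 log2 on wild-type arrays 4, 6, 28 and 29 and 11.59, 9.73, 12.12 and 12.01 on GR-null arrays 5, 17, 25 and 26. The groups overlapped through GR-null 17 alone. Desmocollin 1 (Dsc1) had -0.17 at the brighter and 1.22 ± 0.57 (adjusted p = 0.255) at the dimmer probe set. The dimmer set read 8.73, 8.54, 8.98 and 7.86 in the wild-type and 9.88, 7.85, 10.58 and 10.68 in the GR-null arrays, again with GR-null 17 among the low values. Dsc3 had positive values at both, with 0.82 and 1.43 ± 0.43 (adjusted p of 0.0609 and 0.0928 over probe sets). The sources used here do not say what part of each transcript these probe sets read.

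The kallikrein inhibitor gene Spink12, also chosen after its values were seen, read 6.42 log2 in GR-null 26, where the other GR-null arrays had 4.25 to 4.37 and the wild-type ones 3.93 to 4.12.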
